A study of Mus musculus with 55 samples.

Results

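The 10 glutathione transferase genes outside the alpha class that are described here in mouse liver are Gstm1, Gstm2, Gstm3, Gstm4, Gstm6, Gstp1, Gstt1, Gstt3, Mgst1 and Mgst3. They were taken by symbol, 10 of 37620 genes in the tables, with no threshold on a measured value. The livers came from 55 naive male mice of 29 Collaborative Cross (CC) lines. CC lines are inbred mouse lines that each carry a different mosaic of the genomes of the same 8 founder strains (WSB/EiJ, A/J, CAST/EiJ, 129S1/SvImJ, PWK/PhJ, C57BL/6J, NZO/HlLtJ and NOD/ShiLtJ). No mouse was treated, and the groups compared are the lines themselves, which differ in genotype. The mice were 8.0 to 11.9 weeks old and weighed 12.8 to 38.0 g. There was 1 mouse in 8 lines, 2 in 16 lines and 3 in 5 lines. Founder haplotypes were not analysed here, so a difference between lines is not assigned to an allele.

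Glutathione transferases join the thiol of glutathione to electrophilic compounds, which makes drugs, epoxides and lipid peroxidation products more soluble and ready for export. The cytosolic enzymes work as dimers and fall into classes, among them mu (the Gstm genes), pi (Gstp1) and theta (Gstt1 and Gstt3), while Mgst1 and Mgst3 belong to an unrelated family of membrane proteins with transferase and peroxidase activity. Hepatocytes are rich in these enzymes, and Gstp1 is known as a major form in the liver of male mice.

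Sequencing gave 20.5 to 34.0 M fragments assigned to genes per mouse, with a median of 27.7 M. The expression profile of 42 of the 47 mice that had a line mate was most like that of a line mate. The exceptions included both mice of IL-1052 and 2 of the 3 mice of IL-2750, which were most like mice of the other of these lines. The remaining exception was 1 mouse of IL-2146, which was most like the mouse of IL-1141. Several results below are therefore also given without IL-1052 and IL-2750, and IL-2146 was kept in these. Summed markers of hepatocytes (Alb, Apoa1, Ttr, Cps1, Tat and Serpina1c) ranged from 21350 to 71798 FPKM, where FPKM is fragments per kilobase of transcript, scaled by the mapped fragments of each library. Markers of Kupffer cells ranged from 7.0 to 214 FPKM and those of acinar pancreas from 0 to 563 FPKM. The labels name no batch, and in these bulk samples fewer cells of a type and less RNA per cell cannot be told apart.

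The 5 Gstm members lie side by side on the minus strand of chromosome 3 (build NCBIM37). Gstm6 spans chr3:107741765-107746667, Gstm3 chr3:107745251-107772201, Gstm2 chr3:107784620-107789371, Gstm1 chr3:107815173-107820891 and Gstm4 chr3:107843326-107847812. The annotated ends of Gstm6 and Gstm3 overlap. Gstt3 (chr10:75236860-75244159) and Gstt1 (chr10:75246558-75261329) are neighbours on chromosome 10. Gstp1 (chr19:4035411-4037921), Mgst1 (chr6:138088837-138105276) and Mgst3 (chr1:169302097-169323972) lie apart from the others.

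The Gstm genes are close copies, which bears on how their reads are assigned. Their main transcripts each hold 654 coding bases in exons of equal lengths. Identity over these bases ran from 79.1% between Gstm3 and Gstm4 to 89.5% between Gstm1 and Gstm3. Exon 5, a coding exon of 101 bases, is shown because it can be compared base by base across the 5 genes. It lies at chr3:107819246-107819346 in Gstm1, chr3:107787967-107788067 in Gstm2, chr3:107770493-107770593 in Gstm3, chr3:107846242-107846342 in Gstm4 and chr3:107745051-107745151 in Gstm6 (NCBIM37, minus strand). Capitals mark the 41 positions at which at least 1 gene differs.
Gstm1: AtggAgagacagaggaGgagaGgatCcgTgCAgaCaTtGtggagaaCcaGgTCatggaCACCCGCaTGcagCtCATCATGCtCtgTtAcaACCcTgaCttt
Gstm2: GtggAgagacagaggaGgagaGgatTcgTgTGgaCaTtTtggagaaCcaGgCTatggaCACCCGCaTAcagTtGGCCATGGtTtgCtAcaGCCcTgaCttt
Gstm3: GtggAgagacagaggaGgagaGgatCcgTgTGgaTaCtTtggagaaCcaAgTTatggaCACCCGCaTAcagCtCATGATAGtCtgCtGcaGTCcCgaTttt
Gstm4: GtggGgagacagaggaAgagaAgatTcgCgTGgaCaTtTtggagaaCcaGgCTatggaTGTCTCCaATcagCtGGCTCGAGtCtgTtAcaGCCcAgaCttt
Gstm6: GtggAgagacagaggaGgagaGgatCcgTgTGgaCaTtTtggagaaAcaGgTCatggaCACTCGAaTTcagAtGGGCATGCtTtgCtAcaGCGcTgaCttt
Over the joined coding exons, runs of identical bases reached 125 bases between Gstm3 and Gstm6 and 112 between Gstm1 and Gstm3. Of the 50-base words in the main Gstm3 transcript, 10.9% also occurred in Gstm1 and 6.69% in Gstm6. Gstp1 shared 67.5% of its words with Gstp2, and Gstt3 shared 26.0% with RP23-333M15.8. No shared word was found in Gstm4, Gstt1, Mgst1 or Mgst3. Levels of the genes that share words depend on how reads were divided between copies, so their values are less certain.

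The members fell into a high and a low group of levels. Mgst1 had a median of 3084 FPKM over the 55 mice, Gstp1 2161 FPKM and Gstm1 850 FPKM. Together they made up most of the summed FPKM of the 10 genes, with median shares of 46.6%, 36.0% and 12.3%. Gstt1 followed with a median of 149 FPKM and Gstm6 with 80.9 FPKM. Gstm2, Gstm3 and Gstm4 had nearly equal medians of 48.5, 45.2 and 45.1 FPKM. Gstt3 had 15.8 FPKM and Mgst3 9.80 FPKM. The sum of the 10 genes varied from 3738 to 9071 FPKM per mouse, with a median of 6606 FPKM.

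The spread across lines followed a different order from the level. The highest line mean over the lowest was 2.14 for Mgst1 and 3.99 for Gstm1, 2 of the 3 most abundant members. It was 946 for Gstm3, 146 for Gstt1, 54.1 for Gstm2 and 27.4 for Gstm6. Gstt3, Mgst3, Gstp1 and Gstm4 had ratios of 11.1, 12.3, 8.59 and 3.03. Some extremes rested on lines with 1 mouse. With lines of at least 2 mice the ratio was 388 for Gstm3, 25.2 for Gstm2, 7.73 for Mgst3 and 3.68 for Gstp1, and it stayed at 146 for Gstt1.

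**Figure D1:**
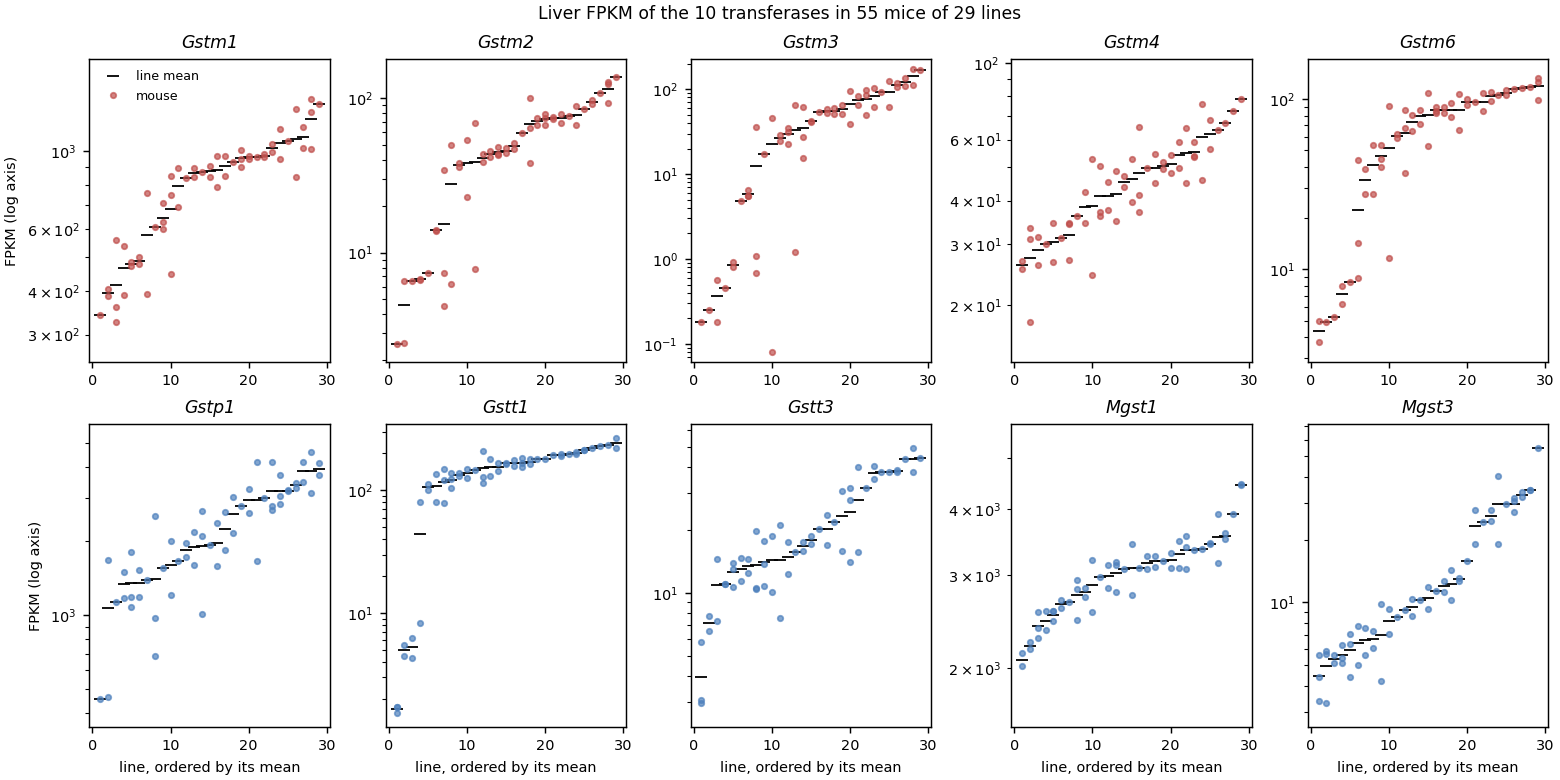
FPKM of each of the 10 transferases (log axis) in every mouse (points), with lines ordered along the horizontal axis by their mean (dashes). Gstm3 and Gstt1 span the widest ranges, from 0.18 to 170 FPKM and from 1.66 to 243 FPKM between line means, while Mgst1 spans 2077 to 4446 FPKM.

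All 10 members differed among lines in edgeR's quasi-likelihood test on estimated counts, with the 47 mice that had a line mate, in 21 lines (Benjamini-Hochberg adjusted p over all genes from 3.88e-12 for Mgst3 to 0.00430 for Gstp1). This has to be read against the background, since 88.5% of the 15285 genes tested differed among lines. The share of variance that lay between lines, the intraclass correlation of rank-based scores of FPKM, describes how alike line mates were. Its median was 0.745 over the members and 0.555 over the 11284 genes that reached 2 FPKM in any mouse. Gstt1 was highest at 0.844, which exceeded 97.4% of those genes, and Gstp1 was lowest at 0.530, below their median. Without IL-1052 and IL-2750 the medians were 0.774 and 0.620.

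Each line was then set against the mean of the other lines in the same fit, with p-values adjusted over all genes and lines together. Of 210 pairs of a member and a line, 32 were higher (15.2%) and 30 were lower (14.3%). Over all genes the shares were 11.0% of pairs higher and 7.15% lower. Each of the 21 lines had at least 1 called member. IL-1513 and IL-611 had 5 called members each, with Gstm6 and Gstt1 higher in both. IL-1513 was also higher in Gstm3 and Mgst3 and lower in Mgst1, and IL-611 was higher in Gstm1 and Gstm2 and lower in Mgst3. Of the 62 calls, 30 were lost when a mouse of the called line was left out, and 0 changed direction. Without IL-1052 and IL-2750, 75 of 190 pairs were called, and the number of lines called rose from 1 to 6 for Gstm4, from 5 to 9 for Gstm6 and from 5 to 8 for Gstm3. In IL-611 each call stayed with any mouse left out. In IL-1513 those of Gstt1 and Mgst3 did, whereas the adjusted p reached 0.212 for Gstm3, 0.183 for Gstm6 and 0.514 for Mgst1.

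**Figure D2:**
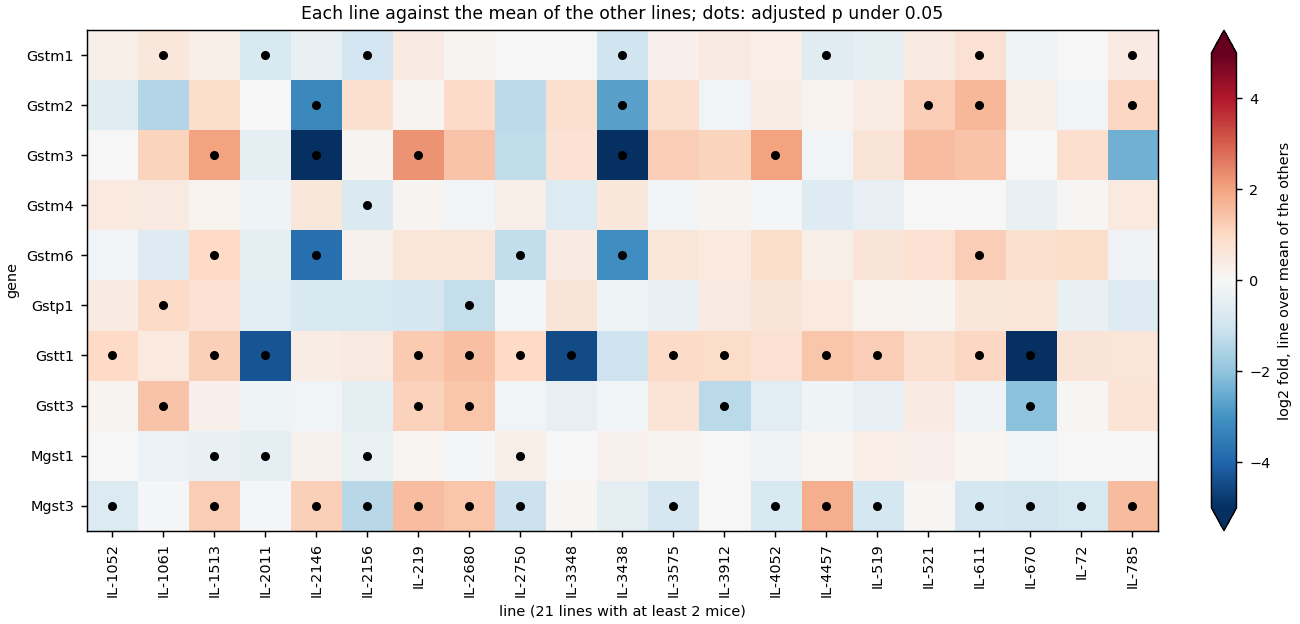
Log2 fold of each of the 21 lines with at least 2 mice over the mean of the other lines (colour) for the 10 transferases (rows), with dots where the adjusted p of edgeR was under 0.05. The deepest cells are Gstm3 in IL-2146 (-6.70) and IL-3438 (-5.45) and Gstt1 in IL-670 (-5.86), IL-3348 (-4.48) and IL-2011 (-4.31).

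Gstm2, Gstm3 and Gstm6, mu class enzymes of the inner cluster, were very low in the same 5 lines. IL-1141, IL-1452, IL-2146, IL-2693 and IL-3438 held the 5 lowest ranks of all 3 genes, in different orders. IL-2146 is shown because both its mice were low. They had 6.52 and 2.58 FPKM of Gstm2, 0.56 and 0.18 of Gstm3, and 4.96 and 3.73 of Gstm6. IL-3438 had 6.62 and 6.78 FPKM of Gstm2, 0.92 and 0.80 of Gstm3, and 6.23 and 8.03 of Gstm6. Both mice of each line thus lay far below the medians of 48.5, 45.2 and 80.9 FPKM. The other 3 lines had 1 mouse each, at 2.55 to 7.32 FPKM of Gstm2, 0.18 to 0.45 of Gstm3 and 4.94 to 8.41 of Gstm6, and were not tested. Their whole expression profiles were also closest to others of the 5 lines. The mouse of IL-1141 was most like a mouse of IL-2146 (rho 0.956). That of IL-1452 was most like the mouse of IL-2693 (0.915), and that of IL-2693 most like a mouse of IL-3438 (0.922). How far the 5 lines are independent was not tested.

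In the test against the other lines, Gstm6 was lower in IL-2146 by a log2 fold of -3.76 ± 0.54 (SE, adjusted p = 5.72e-06, edgeR) and in IL-3438 by -3.09 ± 0.51 (adjusted p = 4.67e-05). Gstm2 was lower in IL-2146 by -3.21 ± 0.68 (adjusted p = 0.000955) and in IL-3438 by -2.70 ± 0.65 (adjusted p = 0.00351). These 4 calls stayed with any mouse left out. For Gstm3 the log2 fold was -6.70 ± 1.60 in IL-2146 (adjusted p = 0.00303) and -5.45 ± 1.45 in IL-3438 (adjusted p = 0.00757). The Gstm3 call in IL-3438 was lost when either of its mice was left out, with an adjusted p of up to 0.0731. Counts behind these Gstm3 values were small, with 27 fragments over both mice of IL-2146 (exact Poisson 95% interval 17.8 to 39.3) and 6 fragments in IL-1141 (2.20 to 13.1), and intervals cover counting error only.

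In Gstm1 and Gstm4, at the other end of the cluster, these lines did not hold the 5 lowest ranks. The 5 lines ranked 8, 1, 7, 12 and 2 of 29 from the lowest in Gstm1, in the order named above, with 341 to 837 FPKM. All were thus among the 12 lowest lines in Gstm1, but IL-2146 did not pass the test (log2 fold -0.38 ± 0.19, adjusted p = 0.177, edgeR). In Gstm4, another mu class gene, they ranked 26, 8, 24, 29 and 25, so 4 of the 5 were among the 6 highest lines. IL-2693, the highest line for Gstm4, had 78.8 FPKM of Gstm4 against 4.94 of Gstm6. Gstm5 and Gstm7, mu class genes on the far side of Gstm6, were read as neighbours that are not members. The same 5 lines were the 5 lowest in Gstm5 (1.08 to 3.28 FPKM, median over mice 9.72) and the 5 highest in Gstm7 (145 to 178 FPKM, median 54.1).

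**Figure D3:**
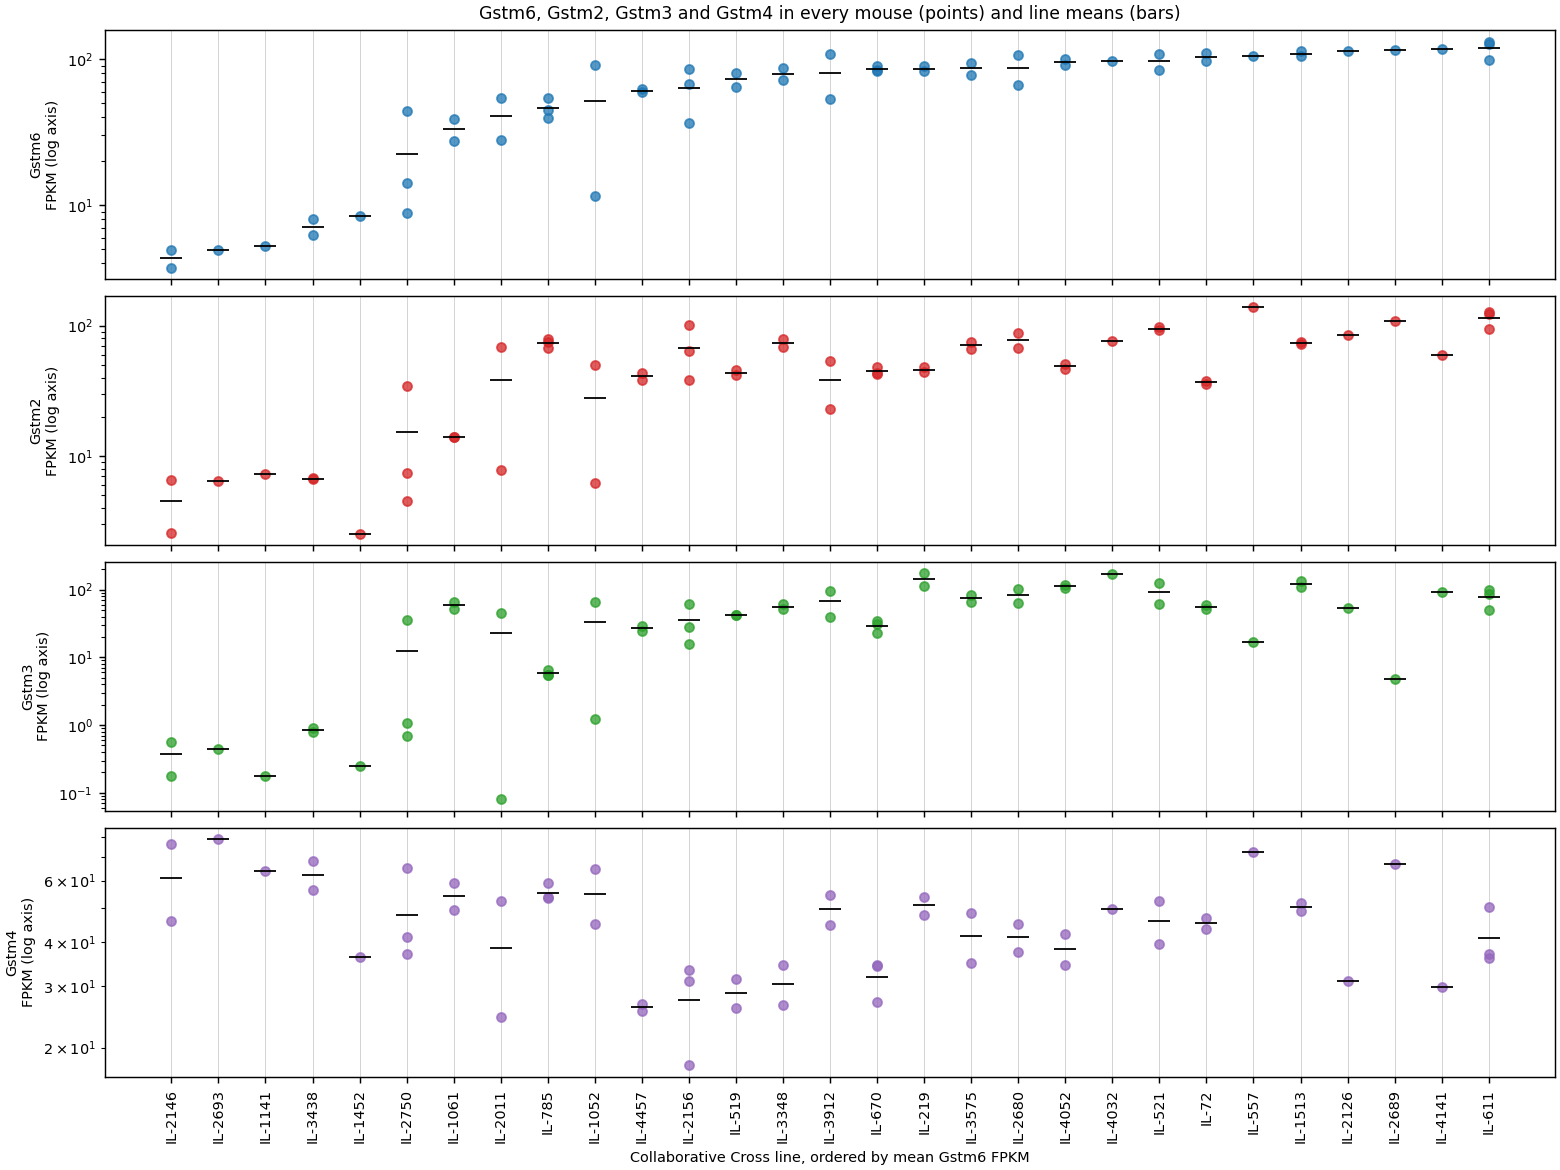
FPKM (log axes) of Gstm6, Gstm2, Gstm3 and Gstm4 in every mouse (points) with line means (bars), lines ordered by mean Gstm6. Gstm2 and Gstm3 are at their lowest in the same 5 lines as Gstm6, whereas Gstm4 in those lines lies between 36.2 and 78.8 FPKM.

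In IL-785, IL-2689 and IL-557 the line mean of Gstm3 was among the 9 lowest of 29, while that of Gstm2 was above the median of lines. The 3 mice of IL-785 had 6.58, 5.50 and 5.49 FPKM of Gstm3 but 74.7, 67 and 79.2 FPKM of Gstm2. The single mouse of IL-2689 had 4.87 FPKM of Gstm3 and 109 of Gstm2, and that of IL-557 had 17.1 and 138. In these lines Gstm6 was 46.1 FPKM on average (IL-785), 116 (IL-2689) and 105 (IL-557). Of these lines only IL-785 had more than 1 mouse. Its Gstm3 did not pass the test (log2 fold -2.41 ± 0.90, adjusted p = 0.0624, edgeR), but passed without IL-1052 and IL-2750 (adjusted p = 0.00440). Its Gstm2 was called higher (1.04 ± 0.37, adjusted p = 0.0483), a call lost in 37 of 51 settings. The highest line means were those of IL-4032 for Gstm3 (170 FPKM, 1 mouse) and for Gstm1 (1362 FPKM), IL-557 for Gstm2 and IL-611 for Gstm6 (119 ± 17.9 FPKM, SD, n = 3).

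Mates differed by more than 3 times in Gstm2 in 3 lines, IL-1052, IL-2750 and IL-2011. Such a difference was found in 5 lines for Gstm3 and in 2 for Gstm6. In IL-1052, the mice had 6.26 and 49.7 FPKM of Gstm2, 1.21 and 64.7 of Gstm3, and 11.6 and 91.3 of Gstm6. In IL-2750, the mice had 7.39, 34.2 and 4.54 FPKM of Gstm2, 1.08, 35.7 and 0.69 of Gstm3, and 14.2, 43.9 and 8.86 of Gstm6. These are the lines whose mice resembled each other across lines. In IL-2011, whose mice were most like each other, Gstm2 was 69.2 and 7.80 FPKM, Gstm3 45.2 and 0.08, and Gstm6 54.1 and 27.8. In each of the 3 lines the mouse with lower Gstm2 also had lower Gstm3 and Gstm6. Gstm6 was called lower in IL-2750 (log2 fold -1.23 ± 0.35, adjusted p = 0.0136, edgeR), a call lost when either of 2 of its mice was left out, with an adjusted p of up to 0.121.

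Neighbouring lines in the order of each gene were set against the SD within lines. Sorting many lines makes most gaps small, so these counts cannot tell a gradual order from groups of lines. With lines ordered by their mean log2(FPKM + 1), 0 of 28 pairs of neighbouring lines differed by more than the SD within lines for Gstm1, Gstm2 and Gstm4. For Gstm3 it was 1 pair, IL-3438 and IL-2750, and for Gstm6 2 pairs, on either side of IL-2750, whose mates disagreed. Without IL-1052 and IL-2750 the SD within lines was smaller and more of 26 pairs were apart, 1 for Gstm1, 2 for Gstm2, 2 for Gstm3 and 3 for Gstm6, and it was 0 for Gstm4. A Gstm6 step then lay between IL-1452 (8.41 FPKM) and IL-1061 (33.3 FPKM), and a Gstm3 step between IL-3438 (0.86 FPKM) and IL-2689 (4.87 FPKM). IL-2011 was also left out, a choice made after seeing the data. Of 25 pairs, 4 were then apart for each of Gstm2, Gstm3 and Gstm6, 1 for Gstm1 and 0 for Gstm4. With all 21 lines in the fit Gstm4 was called in 1 line, lower in IL-2156 (33.3, 31.0 and 17.8 FPKM, log2 fold -0.72 ± 0.20, adjusted p = 0.0116). Without 1 of these mice its adjusted p was 0.136.

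Gstm1, the main hepatic mu class enzyme by these values, was called in 7 lines. It was higher in IL-611 (1401, 1289 and 1010 FPKM, log2 fold 0.77 ± 0.14, adjusted p = 0.000133) and lower in IL-3438 (404 and 386 FPKM, -1.0 ± 0.20, adjusted p = 0.000551). It was also lower in IL-2156 (360, 556 and 327 FPKM, -0.95 ± 0.16, adjusted p = 8.63e-05). The mice of IL-611 and IL-3438 did not overlap, but these lines were picked from the same values. The 3 calls stayed with any mouse left out.

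Across the 29 line means of log2(FPKM + 1), Gstm2 and Gstm6 had the highest correlation among members, with a Spearman rho of 0.84 (Pearson r 0.93, and 0.91 without the 2 lines farthest from the median). It was 0.73 for Gstm1 and Gstm3, 0.69 for Gstm3 and Gstm6, and 0.58 for Gstm2 and Gstm3. Gstm4 stood apart across lines, with rho of -0.15 to Gstm2, -0.24 to Gstm6, -0.32 to Gstm3 and 0.15 to Gstm1. Over the 10 pairs of Gstm members the median rho was 0.58, and over the 34 pairs of members on different chromosomes it was 0.15. For all genes the median was 0.071 between chromosomes and 0.187 for genes that start within 150 kb of each other (5% to 95% of those pairs lay between -0.277 and 0.679). The points share libraries, and the Gstm genes share read words, so these values are descriptions.

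Gstm2, Gstm3 and Gstm6 were also correlated between line mates. Of the deviations of 47 mice from their line means, r was 0.95 for Gstm2 and Gstm3, 0.89 for Gstm2 and Gstm6 and 0.85 for Gstm3 and Gstm6. For Gstm1 it was 0.21 with Gstm3, 0.31 with Gstm2, 0.37 with Gstm6 and 0.62 with Gstm4. These values rest in part on the lines whose mates disagreed. Without IL-1052 and IL-2750 (42 mice), the first 3 were 0.91, 0.77 and 0.64, and that of Gstm1 and Gstm3 was 0.14. When IL-2011 was also left out (40 mice), a choice made after seeing the data, they were 0.71, 0.81 and 0.64, and that of Gstm1 and Gstm3 was 0.79. Gstm5 followed Gstm3 across lines (rho 0.80, r 0.91). Gstm7 ran opposite to Gstm3 (rho -0.68, r -0.90) and along with Gstm4 (rho 0.66).

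**Figure D4:**
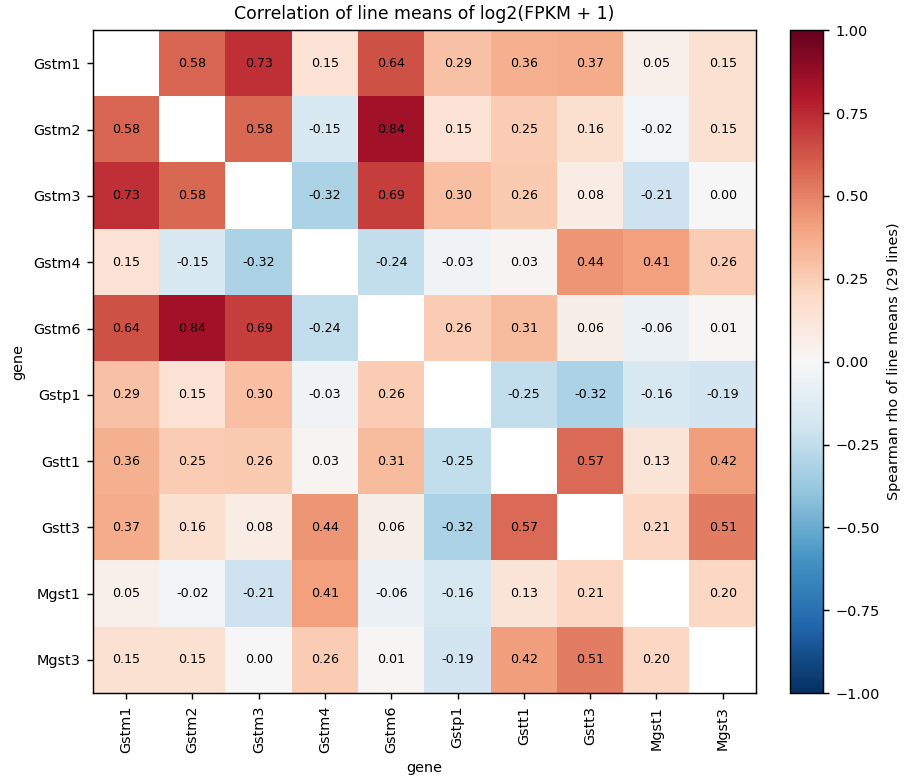
Spearman rho of line means of log2(FPKM + 1) over 29 lines for each pair of the 10 transferases (colour). The block of Gstm1, Gstm2, Gstm3 and Gstm6 reaches 0.84, Gstm4 lies between -0.32 and 0.15 with the other Gstm members, and Gstt1 with Gstt3 is 0.57.

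The genes most like each member across lines included several neighbours. For Gstm3 the 3 most like were Gstm5 (rho 0.80), 4933431E20Rik (0.77) and Psma5, a proteasome subunit (0.74), all on chromosome 3 and 0.0465 to 0.315 Mb away by start. For Gstm1 they were Gstm3, Prdx1, a peroxiredoxin (0.70), and Ugt2b34, a glucuronosyltransferase (0.67). For Gstm2 they were Gstm6, Agxt2 (0.77) and Fbxl17 (0.73). For Gstm6 they were Gstm2, Gstm3 and Nedd9, the last with rho 0.67 but r 0.34. Gstm4 was most like Immt, a protein of the mitochondrial inner membrane (0.75), Mtrf1 (0.70) and Adra1a (0.69).

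Some summed markers of other cells or zones moved with some of these genes, and the highest rhos are given first. Summed pericentral hepatocyte markers (1277 to 7297 FPKM over mice, all 8 differing among lines) had rho of 0.60 with Gstm2 and 0.57 with Gstm6. Summed stellate cell markers (16.4 to 136 FPKM) had rho of 0.57 with Gstm2 and 0.53 with Gstm3. Gstm4 had rho of -0.026 with the pericentral and -0.094 with the stellate sum. Summed erythroid markers ran the other way, with rho of -0.48 with Gstm1 and with Gstm3. Summed hepatocyte markers had rho of 0.13 with Gstm2, 0.052 with Gstm3 and 0.21 with Gstm6. Of the low lines, IL-2146 was the lowest of 29 in summed stellate markers (16.7 FPKM, median of lines 73.4) and in summed endothelial markers (12.5 FPKM, median 36.9). IL-3438 ranked 13 and 6 from the lowest, with 68.3 and 24.0 FPKM. IL-1141, IL-1452 and IL-2693, with 1 mouse each, ranked 6, 4 and 3 in stellate markers. In endothelial markers they ranked 10, 3 and 19. In summed hepatocyte markers IL-2146 ranked 28, IL-3438 22, IL-1141 15, IL-1452 18 and IL-2693 4 from the lowest. No gene of these lists was at 0 in every mouse. Their part in the Gstm differences was not tested.

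Gstt1, a theta class enzyme that conjugates small halogenated compounds, had the sharpest split of the members. The 3 mice of IL-670 had 1.72, 1.55 and 1.71 FPKM, the 2 of IL-3348 had 4.50 and 5.49, and the 2 of IL-2011 had 6.32 and 4.29. In IL-3438 the mice differed, at 80.2 and 8.36 FPKM. The other mice lay between 79.1 and 266 FPKM, so that the 7 mice of the first 3 lines did not overlap with them. These lines were picked from the same values. The log2 fold was -5.86 ± 0.45 in IL-670 (adjusted p = 6.17e-11, edgeR), -4.48 ± 0.50 in IL-3348 (8.63e-08) and -4.31 ± 0.49 in IL-2011 (1.49e-07), and these calls stayed with any mouse left out. IL-3438 did not pass, at -1.03 ± 0.37 (adjusted p = 0.0520).

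Gstt1 was called higher in 10 lines, where the mean of the others includes the 3 low lines, and in 11 of 19 without IL-1052 and IL-2750. The largest of these was IL-2680, with 266 and 219 FPKM and a log2 fold of 1.49 ± 0.28 (adjusted p = 0.000295). Gstt1 in IL-670 rested on 140 fragments over 3 mice (exact Poisson 95% interval 118 to 165).

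Gstt3, its theta class neighbour, was also lowest in IL-670, at 2.98, 5.82 and 3.06 FPKM (log2 fold -2.04 ± 0.33, adjusted p = 3.43e-05). The relation was partial, however. IL-3912 had low Gstt3 (6.57 and 7.76 FPKM, log2 fold -1.33 ± 0.37, adjusted p = 0.0110, lost without either mouse at up to 0.121) with Gstt1 at 157 and 175 FPKM. IL-3348 had low Gstt1 with Gstt3 at 14.5 and 12.5 FPKM. In IL-2011 Gstt3 was 7.58 and 21.2 FPKM. Gstt3 was higher in IL-1061 (38.6 and 37.9 FPKM, 1.44 ± 0.28, adjusted p = 0.000323) and IL-2680 (49.3 and 37.9 FPKM, 1.40 ± 0.28, adjusted p = 0.000448).

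Across lines Gstt1 and Gstt3 had a rho of 0.57. The gene most like Gstt1 was Ddt, D-dopachrome tautomerase, which starts 0.0126 Mb away (rho 0.78, r 0.87). Ddt was lowest in IL-2011 (198 FPKM), IL-670 (199), IL-3348 (234) and IL-3438 (234), the 4 lines with the lowest Gstt1 means. The next most like were Hspa1a and Hspa1b, inducible heat shock proteins on chromosome 17 (rho 0.71 and 0.70, r 0.43 and 0.39). Gstt2, another theta gene beside them, was lowest in IL-670 (5.97 FPKM) and IL-2011 (10.2 FPKM) but ranked 11 of 29 in IL-3348. Genes like Gstt3 included Ndufs1 (0.72) and Acss3 (0.72). Gstt3 also had a rho of -0.49 with depth and -0.50 with body weight over line means, and the part of these in its differences was not tested.

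Gstp1, the pi class enzyme, was abundant and varied widely between mates as well as between lines. Line means ran from 459 FPKM in IL-1452 (1 mouse) to 3940 FPKM in IL-1061 (3711 and 4169). The highest mouse was in IL-3348, at 3137 and 4607 FPKM. Mates differed by up to 3.71 times, in IL-785 (2538, 977 and 684 FPKM), and in IL-2680 they had 467 and 1677 FPKM. The SD was 954 FPKM between line means and 702 FPKM within lines. It was called higher in IL-1061 (log2 fold 0.96 ± 0.33, adjusted p = 0.0386) and lower in IL-2680 (-1.18 ± 0.41, adjusted p = 0.0409). Both calls were lost with a mouse of the line left out, at adjusted p up to 0.270 and 0.518.

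Its near copy Gstp2 lies next to it and took 0.0633% to 9.35% of their summed FPKM, with a median of 0.198%. The intraclass correlation of their sum was 0.524, beside 0.530 for Gstp1 alone. The genes most like Gstp1 were Gp2 (rho 0.69 but r 0.065, median of lines 0 FPKM), Slc39a4, a zinc transporter (0.67), and Cyp2j6 (0.65).

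Mgst1, the most abundant member, had the smallest spread between lines. Line means ran from 2077 FPKM in IL-2011 (2016 and 2137) to 4446 FPKM in IL-2146 (4449 and 4444). Its range of line means exceeded that of 44.6% of genes, the lowest such share of the members. Mates were close, with a median ratio of 1.07, and its intraclass correlation was 0.773. It was called lower in IL-2011 (log2 fold -0.46 ± 0.13, adjusted p = 0.0125), and this call was lost without either mouse, at up to 0.125. IL-2146 did not pass, with a log2 fold of 0.23 ± 0.12 (adjusted p = 0.221).

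FPKM and fragments placed IL-2146 differently. In CPM, fragments scaled by library size with no correction for length, IL-2146 had 3126 (3125 and 3128) and ranked 25 of 29, and IL-557 was highest at 3982. By the assigned isoform shares, a short isoform made up most of Mgst1 in IL-2146. For the other 9 members the order of lines in FPKM and in CPM had rho of at least 0.99, and for Mgst1 0.93.

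Isoforms of Mgst1 differ at their ends. ENSMUST00000008684 (1167 bases) begins with an exon at chr6:138088837-138089127, and ENSMUST00000120302 (559 bases) begins at chr6:138089120-138089173 and has a shorter last exon, which ends at 138104905 instead of 138105276. Both share the exons in between. The long isoform made up 68.8% of Mgst1 on average over mice, from 29.3% to 84.3%, and the short one 26.0%, from 0.17% to 63.8%. In IL-2146 the long isoform was 29.3% and 29.7%, and in IL-521, the highest line, it was 83.4% on average. The 2 mice of IL-2146 were the lowest of the 55.

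The share of ENSMUST00000008684 differed among lines in limma (adjusted p = 0.00862), while that of ENSMUST00000120302 did not pass (adjusted p = 0.0573). Of 10 member isoform shares tested 3 passed, against 28.1% of 21415 shares over all genes. Mates disagreed in some lines. ENSMUST00000120302 was 57.7%, 2.05% and 7.98% in IL-2750, and 55.8% and 18.3% in IL-1513. Without the mouse of IL-2750 at 57.7% its adjusted p was 0.00605, and without IL-1052 and IL-2750 it was 0.0260. As FPKM, the long isoform had a line median of 2066, from 1311 in IL-2146 to 3218 in IL-557, and the short one 787, from 6.56 in IL-557 to 2812 in IL-2146.

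The other 2 shares that passed were those of Gstm3, which add up to the whole gene. ENSMUST00000106678 has 9 exons and 1393 bases, and its last exon, chr3:107745251-107745332 (82 bases), is the same interval as exon 4 of the Gstm6 transcript ENSMUST00000106685. It made up 14.0% of Gstm3 on average (adjusted p = 0.0100, limma). The shares of both isoforms give the same test, and on percentages without scores it did not pass (adjusted p = 0.0583). In 44 mice with at least 100 Gstm3 fragments it was 5.01% to 35.9%, with a median of 12.6%. In 11 mice with 2 to 44 fragments it was 0% to 98.3%, and the highest of these, IL-1141, rested on 6 fragments. IL-785 had 23.7% ± 10.9 (SD, n = 3). Reads within the shared exon cannot be told apart between the 2 genes by sequence.

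**Figure D5:**
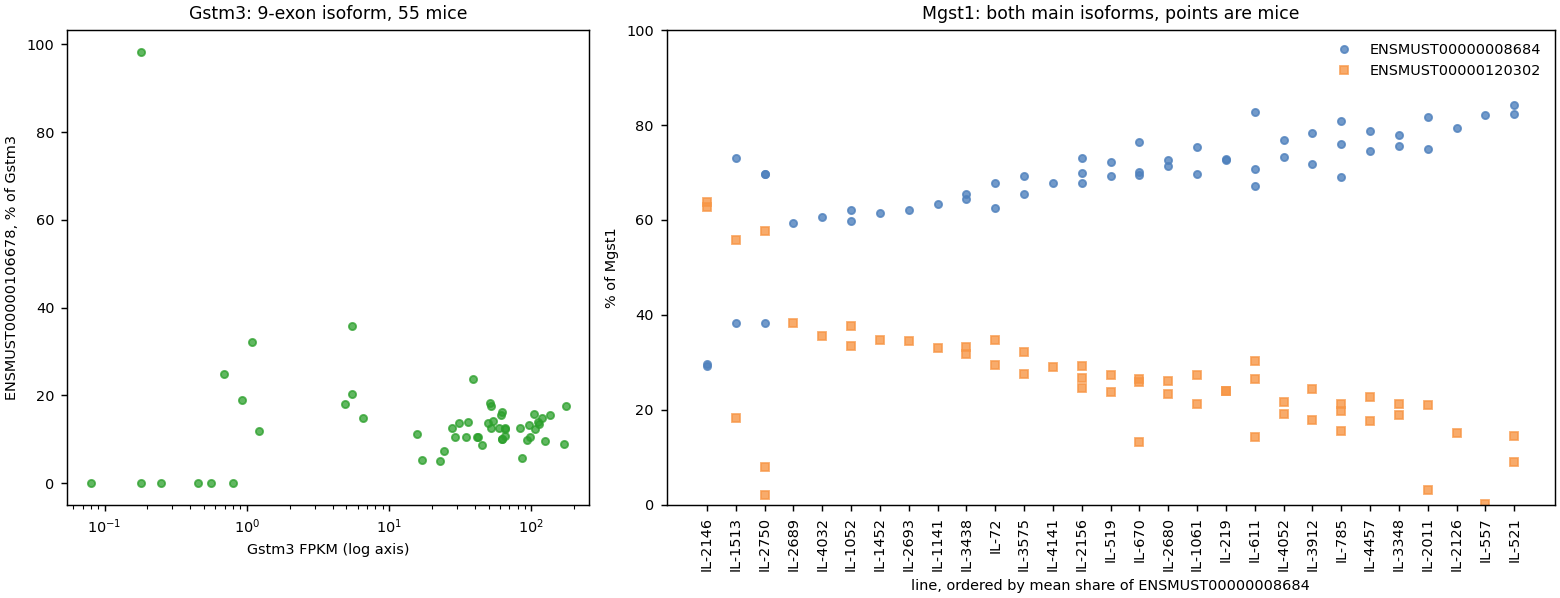
Left, share of Gstm3 assigned to ENSMUST00000106678 (percent) against Gstm3 FPKM (log axis) in 55 mice. Right, shares of Mgst1 (percent) of ENSMUST00000008684 and ENSMUST00000120302 in every mouse, lines ordered by the first. Gstm3 shares spread widely, from 0% to 98.3%, where Gstm3 is low, and IL-2146 is the lowest line for the long Mgst1 isoform.

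Other members had 1 dominant isoform. The main isoform averaged 98.3% in Gstm1, 99.3% in Gstm2, 98.6% in Gstm4, 93.1% in Gstm6, 97.7% in Gstt1 and 97.1% in Gstt3, and it was 100% in Gstp1 and Mgst3. Of their 5 shares tested in limma, in Gstm6, Gstt1 and Gstt3, 0 passed (adjusted p from 0.0793 to 0.860), and 2 had an unadjusted p under 0.05, 1 each of Gstt1 and Gstt3.

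Mgst3, a microsomal member that also has peroxidase activity, was the lowest in level but had the strongest line difference by F. The lowest line was IL-2156 (4.39, 5.6 and 3.37 FPKM) and the highest IL-2126 (54.9 FPKM, 1 mouse). High lines with several mice were IL-4457 (34.4 and 34.4 FPKM), IL-219 (33.7 and 31.8) and IL-785 (31.5, 30.6 and 27.1). The mice of these 3 lines did not overlap with those of IL-2156, but all these lines were picked from the same values. A step larger than the SD within lines lay between IL-1141 (15.8 FPKM) and IL-2146 (23.3 FPKM on average). It was called higher in 6 lines and lower in 9, or in 6 and 7 without IL-1052 and IL-2750.

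The log2 fold of Mgst3 was 1.83 ± 0.17 in IL-4457 (adjusted p = 2.21e-09, edgeR), 1.58 ± 0.15 in IL-785 (2.14e-09), 1.56 ± 0.18 in IL-219 (1.01e-07) and -1.39 ± 0.20 in IL-2156 (7.04e-06). These calls stayed with any mouse left out. In IL-2680, also called, the mice had 40.1 and 19.0 FPKM. The gene most like Mgst3 was Rev1, on the same chromosome and 131 Mb away by start (rho 0.79). Summed acinar pancreas markers had a rho of -0.58 with Mgst3 across lines, 0.48 with Gstp1 and -0.44 with Gstt1. Their median over mice was only 0.49 FPKM, and their median intraclass correlation was -0.111, so line mates were not alike in them. Their part in the levels of these members was not tested.

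Promoters are shown for Gstm2 and Gstm3, which had their lowest line means in the same 5 lines, and for Mgst1, the member with the smallest spread. The 250 bases before the RefSeq start (build GRCm38.p6) lie at chr3:107986421-107986670 and chr3:107969175-107969424 on the minus strand and chr6:138140277-138140526 on the plus strand. Capitals mark matches, on either strand, to TGACNNNGC (the core of the antioxidant response element, bound by Nrf2), TATAAA and CCAAT.
Gstm2: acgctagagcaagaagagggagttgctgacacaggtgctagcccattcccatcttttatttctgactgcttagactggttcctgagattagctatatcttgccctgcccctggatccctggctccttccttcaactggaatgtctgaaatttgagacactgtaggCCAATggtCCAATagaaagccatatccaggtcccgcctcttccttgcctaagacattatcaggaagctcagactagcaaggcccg
Gstm3: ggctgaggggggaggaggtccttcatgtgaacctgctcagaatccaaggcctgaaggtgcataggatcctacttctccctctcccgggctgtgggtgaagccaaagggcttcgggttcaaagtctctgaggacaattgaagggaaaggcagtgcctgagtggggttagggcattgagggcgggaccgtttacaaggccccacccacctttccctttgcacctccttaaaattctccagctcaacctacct
Mgst1: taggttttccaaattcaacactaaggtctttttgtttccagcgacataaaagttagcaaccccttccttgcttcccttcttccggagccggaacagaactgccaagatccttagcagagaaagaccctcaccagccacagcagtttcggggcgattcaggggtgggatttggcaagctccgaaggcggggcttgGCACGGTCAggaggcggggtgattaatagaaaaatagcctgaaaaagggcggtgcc
All 10 members matched a RefSeq promoter, some with more than 1 start. Of these windows, 1 of the 2 of Mgst1 held TGACNNNGC, starting 56 bases before the start site, and 10.2% of 32851 promoters of the same length held it. Gstm2 had CCAAT 85 and 77 bases before the start, which 33.8% of promoters held at least once. Gstm3 had no match to the 3 motifs in this window. Gstm1 had TATAAA, which 12.4% of promoters held.

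The wider pathway varied among lines too. Of 17 other glutathione transferases tested, 15 differed among lines, with the largest F in Mgst2 (listed at 0 to 17.3 FPKM between line means), Gstp2 (0.51 to 109 FPKM) and Gstz1, the zeta class enzyme of tyrosine breakdown (204 to 536 FPKM). Hpgds (adjusted p = 0.0651) and Ltc4s (0.511), both at medians of 0.25 FPKM or less, did not pass. Of 15 genes of glutathione synthesis and recycling 14 passed, led by Chac1, which degrades glutathione (0.12 to 20.2 FPKM), Gss, glutathione synthetase (23.0 to 49.3 FPKM), and Oplah, 5-oxoprolinase (10.6 to 34.1 FPKM). Slc7a11, the cystine transporter, did not pass (adjusted p = 0.626, median 0.15 FPKM).

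All 11 genes of conjugate export and processing passed, led by Ccbl2 (16.0 to 233 FPKM between line means), Abcc6 (9.44 to 37.7 FPKM) and Abcc4 (0.06 to 0.44 FPKM). Of 14 Nrf2 targets 12 passed, led by Srxn1 (9.10 to 335 FPKM), Pir (2.86 to 12.8 FPKM) and Osgin1 (24.4 to 222 FPKM), and Cbr3 (adjusted p = 0.111) and Slc7a11 did not. All 10 targets of the drug receptors CAR and PXR passed, led by Cyp2a4 (0.01 to 723 FPKM), Cyp2b9 (0.01 to 170 FPKM) and Cyp2c55 (0.33 to 8.04 FPKM), as did all 13 regulators, led by Bach1 (2.23 to 63.6 FPKM), Maff (0.49 to 27.4 FPKM) and Keap1 (7.31 to 14.3 FPKM). Set against the 88.5% of genes that differ, these shares are near the background. The median intraclass correlation was 0.694 for the other transferases, 0.594 for glutathione synthesis, 0.593 for conjugate export, 0.640 for Nrf2 targets, 0.739 for CAR and PXR targets and 0.548 for regulators, beside 0.745 for the members.

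Summed levels of these lists had mostly weak relations to the members across lines. For Nrf2 targets rho lay between 0.071 (Gstt1) and 0.36 (Gstm1). For CAR and PXR targets it reached 0.57 with Mgst3 and 0.41 with Gstm1. The sum of glutathione synthesis and recycling genes had rho of at most 0.31, with Mgst1. Such sums mostly follow their most abundant genes. Gpx1 had a median of 1644 FPKM, where the sum of this list had a median of 2557 FPKM. Cyp3a11 had 1309 FPKM, where the sum of CAR and PXR targets had 1725 FPKM. These values therefore say little about each list as a set.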

How the data were processed

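Liver polyA RNA of 55 mice was sequenced as stranded paired-end libraries. The authors aligned reads with Bowtie 2 and quantified them with RSEM 1.2.18 on mm9 with Ensembl annotation. For each mouse they deposited FPKM, TPM and estimated counts of 37620 genes, and FPKM and the percent of each gene's expression taken by each of 97251 isoforms. RSEM divides reads shared by similar transcripts, so values of close copies depend on its model.

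Estimated counts, rounded to whole numbers, were tested with edgeR 4.0.16 in R 4.3.3 (quasi-likelihood, TMM factors, filterByExpr) over the 47 mice of 21 replicated lines, among lines and for each line against the mean of the others. Benjamini-Hochberg adjustment ran over all genes, or all genes and lines, at a threshold of 0.05. Isoform percentages with at least 12 rounded levels, in genes reaching 2 FPKM, were tested on van der Waerden scores (normal scores of ranks) with limma 3.58.1. Intraclass correlations used the same scores of FPKM over the 55 mice. Fold changes are log2. Their standard errors were derived from the same test, as the absolute log2 fold over the square root of F. Correlations used line means and carry no p.

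Depth was 20.5 to 34.0 M fragments. The values of mates differed in at least 16296 genes, so no pair was counted as 1 sample. The labels do not say more about how mates relate than their line, so p-values measure the spread between mice of a line. Replicates are numbered in the order of deposit. Alternatives were DESeq2 1.42.0, RLE size factors, other filters, TPM, another pseudocount, leaving out each mouse, and leaving out IL-1052 and IL-2750. Scripts were tested on simulated data. Genotypes were not analysed here, and 0 columns of the tables were left unassigned.

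The members and lists were chosen with earlier results of these data known. Named are the 10 members, their extreme lines, lines called for at least 5 members, the 3 most correlated genes of each, isoforms with a mean share of at least 5%, and of each list the 3 genes with the largest F and those not called. Some of the correlated genes are not reported here. Other lines and neighbouring genes were named after their values were seen.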

Additional observations from a re-analysis of the deposited data

How the results depend on the processing

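All 10 members were called among lines under RLE size factors, with no filter, with all 29 lines in the fit, without IL-1052 and IL-2750, with DESeq2 and with any mouse left out. With at least 10 counts in every mouse Gstm3 was not tested, and the other 9 were called. The number of member and line pairs called was 62, and 64, 61, 60 of 189 and 75 of 190 with RLE size factors, no filter, that count minimum and without both lines, or 56 to 76 with 1 mouse left out. Of these 62 calls, 32 held in every setting and 0 changed direction. Gstm2 in IL-785 and Mgst1 in IL-1513 and IL-2750 were lost most often, in 37, 32 and 18 settings. The number of isoform shares called was 3 of 10, and 1 on percentages without scores, where both Gstm3 shares were lost (adjusted p = 0.0583, limma), 8 of 23 with at least 5 levels, 4 with a gene maximum of at least 10 FPKM, 4 without both lines and 3 to 5 with 1 mouse left out. More levels admit more isoforms, and otherwise the cause was not tested. The median intraclass correlation was 0.744 to 0.774 (0.727 to 0.776 with 1 mouse left out), the median ratio of extreme line means 9.37 to 12.4, and the median correlation 0.161 to 0.254. CPM, fragments with no correction for length, chosen after seeing the data, gave a median ratio of 12.0. Fits without 1 mouse kept the gene filter and trended dispersion of the whole, and assume that a lone mouse varies like the other lines. Depth limits Gstm3, with 2 to 44 fragments in 11 mice. No paired analysis was possible because replicate numbers only follow the order of deposit.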
